A study of Bos indicus x Bos taurus with 17 samples.

Results

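The urea cycle genes described here are NAGS, CPS1, OTC, ASS1, ASL, ARG1 and ARG2. They were taken by symbol from gene counts of fetal liver and skeletal muscle, and all 7 were found once among the 21048 genes listed. The fetuses were Bos indicus x Bos taurus hybrids (Nelore and Holstein, per the study's methods) at about day 105 of gestation, labelled healthy. Control-AI fetuses were conceived by artificial insemination (n = 2, numbered 2 and 4). ART-Normal fetuses were produced in vitro by assisted reproduction and had a weight like that of the controls (n = 4, numbered 1 to 4, with the fourth in the labels but not in the study's list). Each fetus gave 1 liver and 1 muscle library of poly(A)-selected, strand-specific RNA-seq, so there are 12 libraries.

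The urea cycle turns ammonia, which is toxic, into urea, and in mammals the whole cycle runs in hepatocytes. The first steps take place in mitochondria: NAGS makes N-acetylglutamate, the activator that CPS1 needs to make carbamoyl phosphate from ammonia and bicarbonate, and OTC joins carbamoyl phosphate to ornithine to give citrulline. In the cytosol ASS1 joins citrulline to aspartate, ASL splits the product into arginine and fumarate, and ARG1 releases urea and regenerates ornithine. ARG2 is the mitochondrial arginase, best known outside the liver, where it supplies ornithine for other uses. ASS1 and ASL are also used outside the liver, to make arginine.

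Levels are given in CPM, the counts scaled to library size after TMM normalization. A library held 18454088 to 43339598 counts in liver and 12433300 to 23578362 in muscle. Hepatocyte markers were at 36772 CPM or more in summed level in every liver and at 399 CPM or less in every muscle, and summed skeletal muscle markers were at 18008 CPM or more in every muscle and 35.8 CPM or less in every liver. The liver of Control-AI 2 stood apart, with 362940 CPM of hepatocyte markers against 36772 to 70155 CPM in the other livers and 24606 CPM of erythroid markers against 5480 to 6404 CPM. Its muscle library had 399 CPM of hepatocyte markers against 25.6 to 66.8 CPM in the other muscles. Where a result rests on Control-AI 2, either a value without that fetus or its own level is given. Fewer cells of a type and less RNA per cell cannot be told apart in these bulk samples.

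All 7 genes had a higher level in liver than in muscle (edgeR's quasi-likelihood test, adjusted p of 0.05 or lower). That test called 80.7% of the 12449 genes tested, with 40.4% higher in liver and 40.3% lower. Liver and muscle libraries did not overlap for 6 of the 7, the exception being ARG2, against 64.9% of all tested genes. A gene entered the test when every library of either tissue had at least 5 CPM. ASS1 and ASL reached that level in both tissues, while the other 5 entered through liver alone and so had little room to come out any other way.

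**Figure D1:**
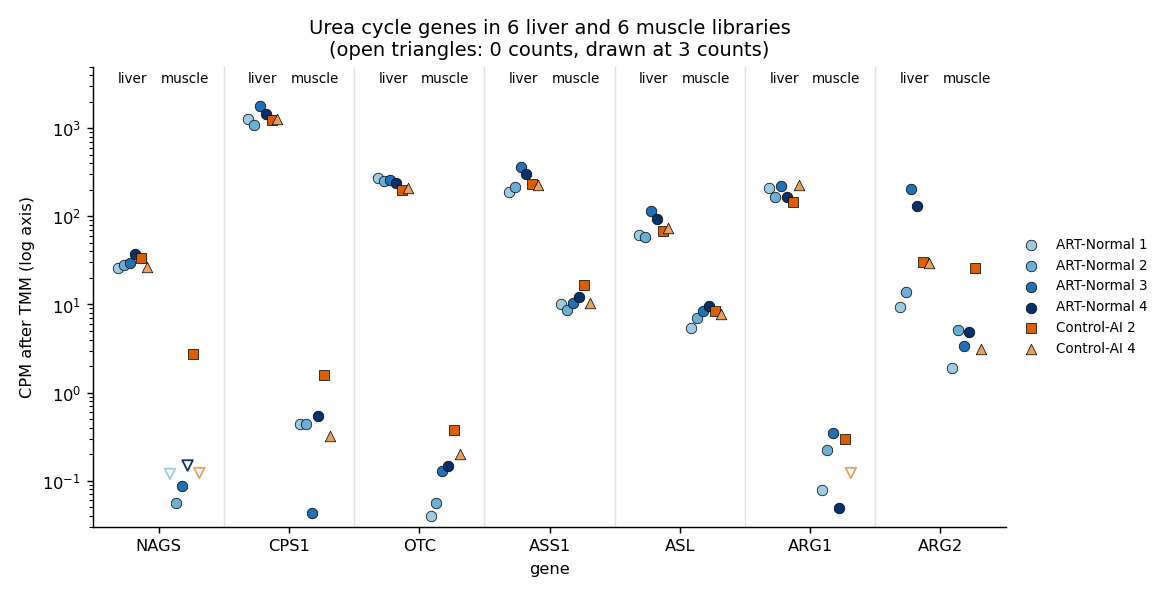
CPM after TMM normalization (log axis) of the 7 urea cycle genes in the 6 liver and 6 muscle libraries, with 1 symbol per fetus; open triangles stand for 0 counts and are drawn at the level of 3 counts. Liver points lie above muscle points for every gene except ARG2, where the muscle of Control-AI 2 (26.1 CPM) lies above the livers of ART-Normal 1 and 2 (9.24 and 13.9 CPM).

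CPS1 (gene 510506, chromosome 2 from 98273701 to 98467680 on ARS-UCD1.2, plus strand) catalyses the committed step of the cycle. Its liver level was 1272, 1101, 1801 and 1461 CPM in ART-Normal 1 to 4, and Control-AI 2 and 4 had 1248 and 1257 CPM. In muscle it had 0.44, 0.45, 0.043 and 0.55 CPM in ART-Normal 1 to 4, and Control-AI 2 and 4 had 1.58 and 0.33 CPM, which are 1 to 21 counts per library. The lowest liver was far above the highest muscle, and the log2 fold change of liver over muscle was 11.38 (SE 0.45, edgeR adjusted p = 6.16e-12).

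NAGS (gene 538004, chromosome 19 from 43860635 to 43868266, plus strand) makes the activator of CPS1. Its liver level was 25.6, 28.1, 29.2 and 37.1 CPM in ART-Normal 1 to 4, and Control-AI 2 and 4 had 33.6 and 26.6 CPM. Muscle held 0, 1, 2 and 0 counts in ART-Normal 1 to 4, 36 counts (2.71 CPM) in Control-AI 2 and 0 counts in Control-AI 4. The 3 libraries at 0 allow levels of up to 0.119, 0.149 and 0.122 CPM in ART-Normal 1, ART-Normal 4 and Control-AI 4, which covers counting error only. A single muscle library thus held 36 of the 39 NAGS counts found in muscle. The log2 fold change of liver over muscle was 6.41 (SE 0.77, edgeR adjusted p = 1.94e-06), and 9.86 without Control-AI 2. As a ratio of mean CPM it was 63.3-fold with that fetus and 1028-fold without it. The pooled counts of the other 5 fetuses, 3 in muscle, gave a ratio of 1091 with a 95% counting interval of 373 to 5294.

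In Control-AI 2, NAGS in muscle was 8.05% of its level in the liver of the same fetus. The same percentage was 0.126% for CPS1, 0.191% for OTC, 0.205% for ARG1 and 0.1099% for the summed hepatocyte markers. NAGS alone of these was out of proportion to the hepatocyte markers in that library. NAGS shares 23 bp with TMEM101 on the other strand, at 22.0 CPM in the muscle of Control-AI 2 and 23.3 to 27.3 CPM in the other muscles. In muscle NAGS is a gene whose opposite neighbour is 16 or more times as abundant, and for the 475 such genes the log2 ratio of Control-AI 2 over the other muscles had a median of 1.03, against -0.03 for 11683 genes with no neighbour there. For the 458 genes with such a neighbour in liver, the median for Control-AI 2 over the other livers was 1.02. The strand setting of the counting is not given in the sources used here. The part of strand in the NAGS value was not tested.

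OTC (gene 280887, chromosome X from 104841977 to 104918525, minus strand) makes citrulline inside the mitochondrion. Its liver level was 269, 249, 256 and 237 CPM in ART-Normal 1 to 4, and Control-AI 2 and 4 had 196 and 211 CPM. Muscle held between 1 and 5 counts per library, at 0.040 to 0.376 CPM. OTC was the steadiest of the 7 genes across the livers, and the log2 fold change of liver over muscle was 10.61 (SE 0.23, edgeR adjusted p = 3.78e-14).

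ARG1 (gene 513608, chromosome 9 from 69513702 to 69539079, plus strand), the cytosolic arginase that closes the cycle, was near or at 0 in muscle. Its liver level was 211, 167, 223 and 165 CPM in ART-Normal 1 to 4, and Control-AI 2 and 4 had 147 and 225 CPM. In muscle it reached at most 8 counts (0.348 CPM, in ART-Normal 3) and was at 0 counts in Control-AI 4, which allows up to 0.122 CPM. The log2 fold change of liver over muscle was 10.22 (SE 0.32, edgeR adjusted p = 5.6e-13).

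ASS1 (gene 280726, chromosome 11 from 100770227 to 100822223, plus strand) and ASL (gene 512771, chromosome 25 from 27989925 to 27998758, minus strand), the pair that makes arginine from citrulline, were the 2 members present at 5 CPM or more in every muscle. ASS1 had 189, 215, 361 and 301 CPM in the livers of ART-Normal 1 to 4, and Control-AI 2 and 4 had 233 and 226 CPM. In muscle it had 10.2, 8.57, 10.5 and 12.1 CPM in ART-Normal 1 to 4, and Control-AI 2 and 4 had 16.5 and 10.4 CPM. Within a fetus the liver level of ASS1 was 14.1 to 34.4 times that of muscle, lowest in Control-AI 2 and highest in ART-Normal 3.

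ASL had 61.7, 58.5, 115 and 93.3 CPM in the livers of ART-Normal 1 to 4, and Control-AI 2 and 4 had 67.5 and 73.6 CPM. In muscle it had 5.36, 7.07, 8.48 and 9.57 CPM in ART-Normal 1 to 4, and Control-AI 2 and 4 had 8.34 and 7.77 CPM. The liver level was 8.09 to 13.6 times that of muscle within a fetus. The log2 fold change of liver over muscle was 4.49 for ASS1 (SE 0.20, edgeR adjusted p = 2.05e-11) and 3.34 for ASL (SE 0.19, edgeR adjusted p = 3.71e-10). All 8834 bp of ASL lie within CRCP on the other strand, a gene at 47.7 to 113 CPM in liver and 24.8 to 35.7 CPM in muscle. ASL is among genes whose opposite neighbour is under 4 times as abundant. For these the median log2 ratio of Control-AI 2 over the other libraries was 0.07 in liver and 0.10 in muscle. The part of strand in the ASL value was not tested.

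ARG2 (gene 518752, chromosome 10 from 79499746 to 79534867, plus strand) behaved unlike the other 6. Its liver level was 9.24, 13.9, 206 and 131 CPM in ART-Normal 1 to 4, and Control-AI 2 and 4 had 30.1 and 29.8 CPM. The highest liver was 22.3 times the lowest, with both ends among ART-Normal fetuses and both controls between them. In muscle it had 1.90, 5.18, 3.39 and 4.91 CPM in ART-Normal 1 to 4, and Control-AI 2 and 4 had 26.1 and 3.09 CPM. Within a fetus the liver level of ARG2 was 4.85, 2.68, 60.8 and 26.7 times that of muscle in ART-Normal 1 to 4 and 1.15 and 9.62 times in Control-AI 2 and 4. In Control-AI 2 the tissues were thus almost level.

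The log2 fold change of ARG2, liver over muscle, was 3.29 (SE 0.85, edgeR adjusted p = 0.00237). Leaving out 1 fetus gave 2.41 without ART-Normal 3, the lowest, to 4.44 without Control-AI 2, the highest, with edgeR adjusted p of 0.019 or less. It was 1.04 (adjusted p = 0.392) when the Control-AI fetuses were taken alone, and the ratio of mean CPM was 9.43-fold in all fetuses and 21.1-fold without Control-AI 2. ARG2 shares 38 bp with VTI1B on the other strand, at 42.9 CPM in the muscle of Control-AI 2 and 31.7 to 43.0 CPM in the other muscles. In muscle ARG2 is among 265 genes whose opposite neighbour is 4 to 16 times as abundant, for which the log2 ratio of Control-AI 2 over the other muscles had a median of 0.48. The part of strand in the ARG2 count of that library, 348, was not tested.

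Levels of different genes can be compared only per length, and the lengths listed are whole gene spans with introns. These spans run from 7632 bp for NAGS to 193980 bp for CPS1. The values below thus depend on intron length and give no order of transcript levels. Before that division the mean liver level was 1357 CPM for CPS1 and 78.3 CPM for ASL. Per kb of span the mean liver level was 8.87 CPM for ASL, 7.47 for ARG1, 6.99 for CPS1, 4.88 for ASS1, 3.94 for NAGS, 3.09 for OTC and 2.00 for ARG2. Every neighbouring pair in that list overlapped in range among the 6 livers, so no step between neighbours per kb of span exceeded their spread.

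Arginase counts came mostly from ARG1 in liver and from ARG2 in muscle. ARG2 made up 4.20%, 7.68%, 48.1% and 44.3% of the ARG1 plus ARG2 counts in the livers of ART-Normal 1 to 4. The corresponding shares were 17.0% and 11.7% in the livers of Control-AI 2 and 4. In muscle the share was 90.7% to 100%, from 50 to 352 arginase counts per library. The 95% Wilson intervals, which cover counting error only, ran from 47.1% to 49.0% in the liver of ART-Normal 3 and from 82.7% to 95.2% in the muscle of ART-Normal 3, the lowest of the muscles. No liver reached the share of any muscle. With counts divided by gene span, introns included, the share became 40.1% and 36.5% in the livers of ART-Normal 3 and 4. It was at most 12.9% in the other 4 livers.

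**Figure D2:**
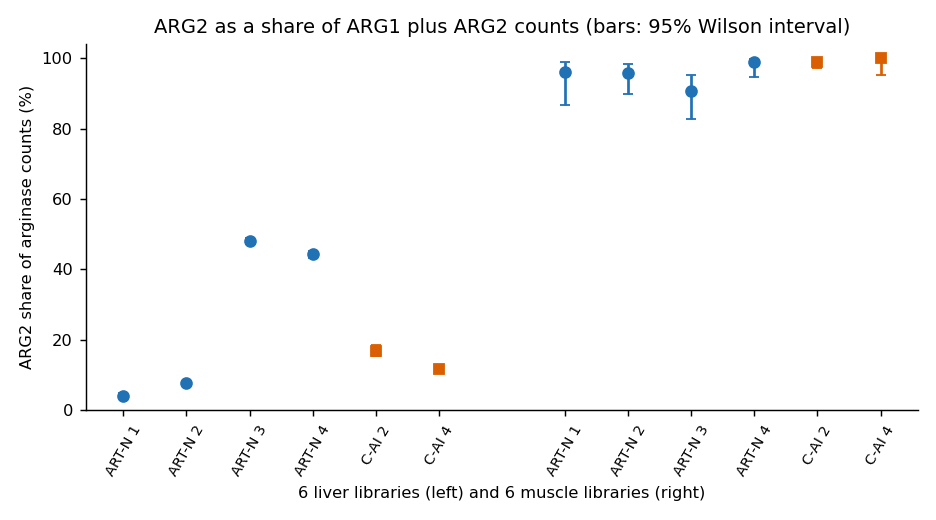
ARG2 counts as a percentage of ARG1 plus ARG2 counts in each of the 6 liver (left) and 6 muscle (right) libraries, with ART-Normal fetuses (ART-N) as circles and Control-AI fetuses (C-AI) as squares; bars are 95% Wilson intervals. The livers of ART-Normal 3 and 4 lie at 48.1% and 44.3%, the other livers at 17.0% or less, and all muscles at 90.7% or more.

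Among the 6 livers the genes of the cycle ranged from steady to widely spread. The SD of log2 CPM was 0.17 for OTC, 0.20 for NAGS, 0.25 for CPS1, 0.26 for ARG1, 0.34 for ASS1, 0.37 for ASL and 1.72 for ARG2, against a median of 0.20 over the 11304 genes tested in liver. ARG2 ranked 19th of those genes by SD, and 3rd when only the 4 ART-Normal livers were used. ASS1 and ASL ranked 1438th and 1136th among the 6 livers.

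The livers that were high for ARG2 were also the highest for 3 other genes. ART-Normal 3 was highest and ART-Normal 4 second for CPS1, ASS1, ASL and ARG2, which is 4 of 7 members, and this order held for 3.63% of all 11304 genes. The order was read from these members' own levels, ARG2 among them, so both shares are a description and carry no test. NAGS was highest in ART-Normal 4, OTC in ART-Normal 1 and ARG1 in Control-AI 4. Of 41 genes from lists around the cycle, described further on, 4 had the order: GAMT, which makes creatine, SLC25A15, the mitochondrial ornithine carrier, CA5A, a mitochondrial carbonic anhydrase that supplies bicarbonate, and SLC7A2, a transporter of cationic amino acids. SLC25A15 had 245, 202, 318 and 271 CPM in the livers of ART-Normal 1 to 4, and Control-AI 2 and 4 had 246 and 200 CPM. CA5A had 12, 7.95, 25.3 and 15.3 CPM in ART-Normal 1 to 4, and Control-AI 2 and 4 had 7.44 and 10.004 CPM.

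As for markers of cell types, the livers of ART-Normal 3 and 4 had 63242 and 48451 CPM of hepatocyte markers, 6045 and 5562 CPM of erythroid markers and 399 and 454 CPM of macrophage markers. Each of these values lay within the range of the other 4 livers (36772 to 362940, 5480 to 24606 and 353 to 518 CPM). Connective tissue markers were 844 and 1002 CPM in the livers of ART-Normal 3 and 4, against 545 to 1168 CPM. Control-AI 2 set the upper end for hepatocyte, erythroid and connective tissue markers. Without Control-AI 2 these upper ends were 70155, 6404 and 897 CPM. The connective tissue value of ART-Normal 4 then lay above the range, and the hepatocyte and erythroid values stayed within it. Summed endothelial markers were 262 and 292 CPM in the livers of ART-Normal 3 and 4, against 247 to 285 CPM in the other 4. The value of ART-Normal 4 was the highest of the 6. The part of connective tissue and endothelial cells in the ARG2 level was not tested. Markers of kidney tubule, where ARG2 is also known, were in summed level at 0.289 CPM or less in every liver.

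**Figure D3:**
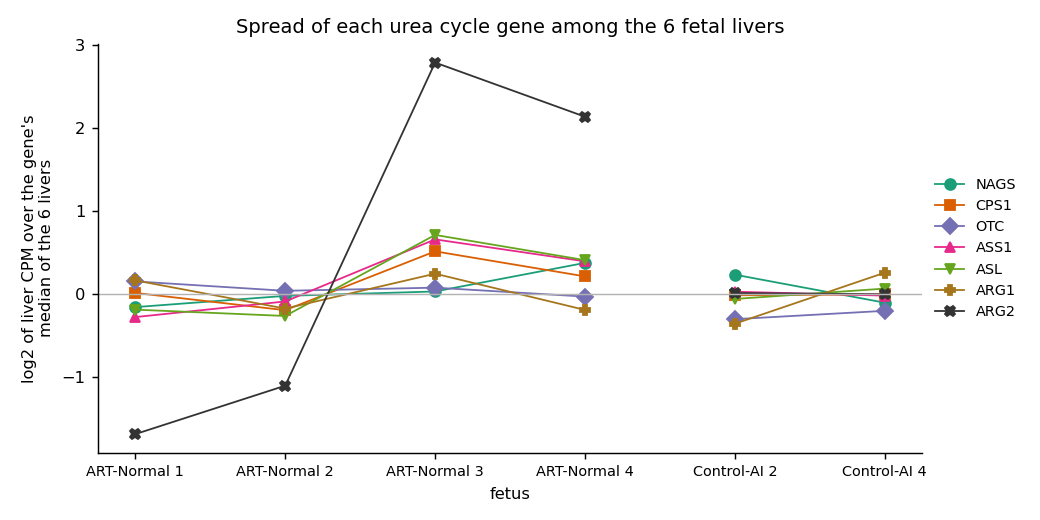
Log2 of the liver CPM of each urea cycle gene over its median of the 6 livers, by fetus, with 1 line per gene and a break between the ART-Normal and Control-AI fetuses. ARG2 spans the widest range (SD of 1.72 for log2(CPM + 1), which is not the plotted scale). CPS1, ASS1, ASL and ARG2 are highest in ART-Normal 3 and second in ART-Normal 4.

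The pattern of CPS1 over the 6 livers was also compared with every other tested gene, as a description. The closest by Pearson's r of log2(CPM + 1) were SCARF2 (r = 0.991), SLC25A27 (0.988), NSDHL (0.979), RNASEH2A (0.975) and GDF10 (0.974). Of the other members, ASL took place 15 of 11303 (r = 0.957), ASS1 place 82 (0.885) and ARG2 place 97 (0.876). ARG1, OTC and NAGS stood at places 2010, 3169 and 3270, with r of 0.40, 0.26 and 0.25. The 6 livers share one scaling, ART-Normal 3 and 4 were the highest of them for CPS1, and these values carry no test.

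The conception comparison asks whether ART-Normal fetuses differed from fetuses conceived by artificial insemination. In liver none of the 7 genes passed (edgeR's quasi-likelihood test, adjusted p of 0.05 or lower). Of all 11304 genes tested, 0 (0%) were called by that test, 89 by edgeR's likelihood ratio test and 56 by DESeq2, with 0 members called by any of the 3. At an unadjusted p under 0.05 there was 1 member, OTC, and 948 genes in all (8.39%).

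OTC was higher in the 4 ART-Normal livers (253 ± 13.4 CPM, SD, n = 4) than in the 2 Control-AI livers (196 and 211 CPM), with no overlap between the groups, as was so for 18.4% of all tested genes in either direction. On the log2 scale ART-Normal exceeded Control-AI by 0.31 (SE 0.13, edgeR adjusted p = 0.581). The widest estimate was that of ARG2, with 90.2 ± 95.9 CPM (SD, n = 4) in ART-Normal against 30.1 and 29.8 CPM. The fitted difference was 1.59 on the log2 scale (SE 1.07, edgeR adjusted p = 0.626) and rests on ART-Normal 3 and 4, since ART-Normal 1 and 2 lay below both controls. The log2 fold changes of the other 5 were 0.17 for CPS1 (SE 0.22), 0.21 for ASS1 (SE 0.25), 0.22 for ASL (SE 0.26), 0.04 for ARG1 (SE 0.20) and -0.01 for NAGS (SE 0.19), with edgeR adjusted p of 0.762 or more. These standard errors leave moderate differences undetected, and a p above the threshold does not show that the groups were alike.

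In muscle only ASS1 and ASL had enough counts to be tested. Neither passed, where 1 of 11695 genes did (0.00855%), 120 by the likelihood ratio test and 106 by DESeq2, and where 1075 genes (9.19%) had an unadjusted p under 0.05. The log2 difference, ART-Normal minus Control-AI, was -0.37 for ASS1 (SE 0.23, edgeR adjusted p = 0.687; -0.0073 without Control-AI 2) and -0.08 for ASL (SE 0.25, edgeR adjusted p = 0.955). ASS1 was highest in the muscle of Control-AI 2, and the other control lay among the ART-Normal muscles.

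The other 5 were below 5 CPM in at least 1 muscle library of each group. Fitted without that filter, ARG2 had a log2 fold change of -1.89 (SE 0.59, edgeR adjusted p = 0.239) and NAGS one of -4.97 (SE 1.48, edgeR adjusted p = 0.212). Both estimates rest on Control-AI 2, since Control-AI 4 had 3.09 CPM of ARG2 and no NAGS count, against 1.90 to 5.18 CPM and at most 2 counts in the ART-Normal muscles. Without Control-AI 2 the ARG2 estimate turned to 0.30 (SE 0.47, edgeR adjusted p = 0.945), and NAGS had too few counts for a fold, with 3 over the 5 muscles. OTC in muscle was at 0.040 to 0.149 CPM in ART-Normal, and Control-AI 2 and 4 had 0.376 and 0.203 CPM, which do not overlap, as for 15.9% of all genes tested in muscle, and rest on at most 5 counts per library.

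**Figure D4:**
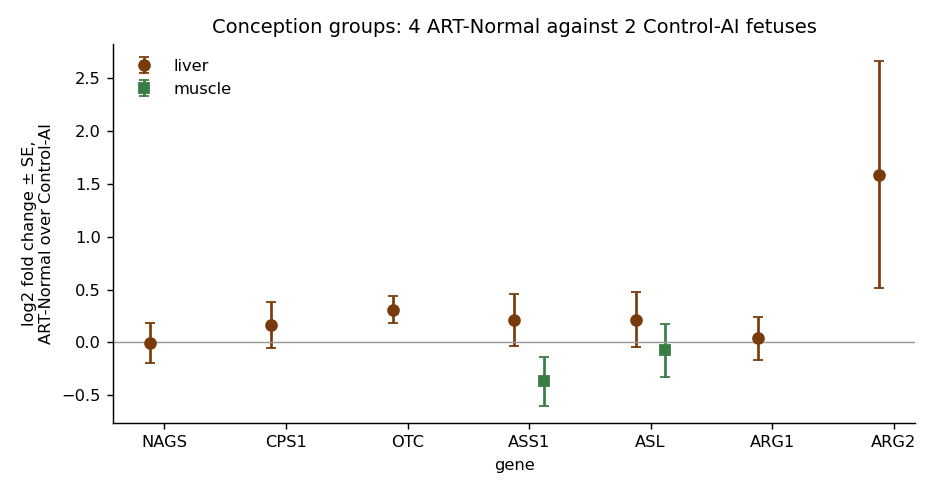
Log2 fold change (vertical axis, ART-Normal over Control-AI) for each urea cycle gene in liver (circles, 7 genes) and muscle (squares, ASS1 and ASL, the 2 with enough counts), from edgeR's fit of 4 against 2 fetuses; bars are 1 standard error. The liver value of ARG2, 1.59, has the widest error (1.07), and no gene had an adjusted p of 0.05 or lower.

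Whether the conception difference itself differed between the tissues was tested by the interaction of tissue and conception over all 12 libraries. Of 12923 genes 0 were called (0%) by the quasi-likelihood test, 98 by the likelihood ratio test and 37 by DESeq2, with 0 members among them, and 711 genes (5.50%) had an unadjusted p under 0.05. NAGS, OTC and ARG2 were among the latter. The interaction on the log2 scale, liver minus muscle, was 4.83 for NAGS (SE 1.50, edgeR adjusted p = 0.714), 1.79 for OTC (SE 0.50, edgeR adjusted p = 0.732) and 3.50 for ARG2 (SE 1.54, edgeR adjusted p = 0.89). Without Control-AI 2 none of these 3 had an unadjusted p under 0.05, and ARG1 did. Leaving out Control-AI 4 leaves Control-AI 2 as the lone control, and calls from that fit are given further on with those of all genes.

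The surroundings of the cycle were described with 46 genes in 7 lists, of which 41 had enough counts for the tissue comparison. Of these, 29 were higher in liver, 5 were lower and 7 did not pass, so 82.9% were called against 80.7% of all 12449 genes. Of the 29, 12 had under 5 CPM in at least 1 muscle and entered the test through liver alone, where they were high. Among the 29 genes that reached 5 CPM in every library of both tissues, 17 were higher in liver, 5 were lower and 7 did not pass. For all 9553 such genes, 40.2% were higher and 35.8% lower. SLC25A2, CA5B, AZIN2, NOS1 and NOS2 were below the filter in both tissues.

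Among genes that supply the cycle, 3 of 5 tested were higher in liver, 1 was lower and SIRT5 did not pass. Of all 12449 genes tested, 80.7% were called, with 40.4% higher in liver and 40.3% lower. CA5A entered the test through liver alone and had a log2 fold change of liver over muscle of 5.11 (SE 0.57). The aspartate carriers parted, with SLC25A13, known as the liver form, at 2.62 (SE 0.13) and SLC25A12, known from muscle and brain, at -1.94 (SE 0.08). SLC25A15 was higher in liver at 2.43 (SE 0.12).

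Among 7 genes of ammonia, glutamate and glutamine, 5 were higher in liver, GPT2 was lower and GLUL did not pass. The share called was near the 80.7% of all genes. GLS2 and GPT entered the test through liver alone. The mitochondrial glutamate dehydrogenase GLUD1, which releases ammonia, had a mean of 1467 CPM in liver and 101 CPM in muscle, a log2 fold change of 3.86 (SE 0.11). The liver glutaminase GLS2 was at 4.21 (SE 0.40). GLUL, glutamine synthetase, the other route for removing ammonia, had 187 CPM in liver and 165 CPM in muscle on average (log2 fold change 0.17, SE 0.13, edgeR adjusted p = 0.233).

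Among 11 tested genes of arginine and ornithine use, 7 were higher in liver (AGMAT through liver alone) and 4 did not pass, a smaller share of calls than the 80.7% of all genes. GATM, which spends arginine on creatine synthesis, was at a mean of 1268 CPM in liver and 12.2 CPM in muscle, with a log2 fold change of 6.70 (SE 0.14), and AGMAT, an agmatinase, was at 5.74 (SE 0.35). OAT, which moves ornithine to glutamate and proline, had 65.8 CPM in liver and 52.9 CPM in muscle (log2 fold change 0.32, SE 0.15, edgeR adjusted p = 0.071).

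The lists for aspartate and fumarate (FH and MDH2 higher in liver, MDH1 lower), cationic amino acid transport (SLC7A1, SLC7A2 and SLC7A7 higher, SLC7A6 lower) and pyrimidine synthesis (DHODH and UMPS higher, CAD not passing) were mixed. With so few genes in each, these counts are not set apart from the 80.7% called among all genes. DHODH entered the test through liver alone. CAD holds the cytosolic carbamoyl phosphate synthetase. Its mean levels were 57.5 CPM in liver and 58.5 CPM in muscle, where CPS1 had 1357 and 0.562 CPM. Of 8 regulators known to act on urea cycle genes or on the liver, 7 (HNF4A, CEBPA, CEBPB, GCGR, FOXA1, FOXA2 and ONECUT1) entered the test through liver alone and were higher there, which the filter nearly fixes. HNF4A, a nuclear receptor of hepatocytes, had a mean of 257 CPM in liver and 24 counts over the 6 muscles, and ONECUT1 had 27.3 CPM in liver and 1 count over the 6 muscles. The glucocorticoid receptor NR3C1 was lower in liver, at -1.39 (SE 0.10).

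**Figure D5:**
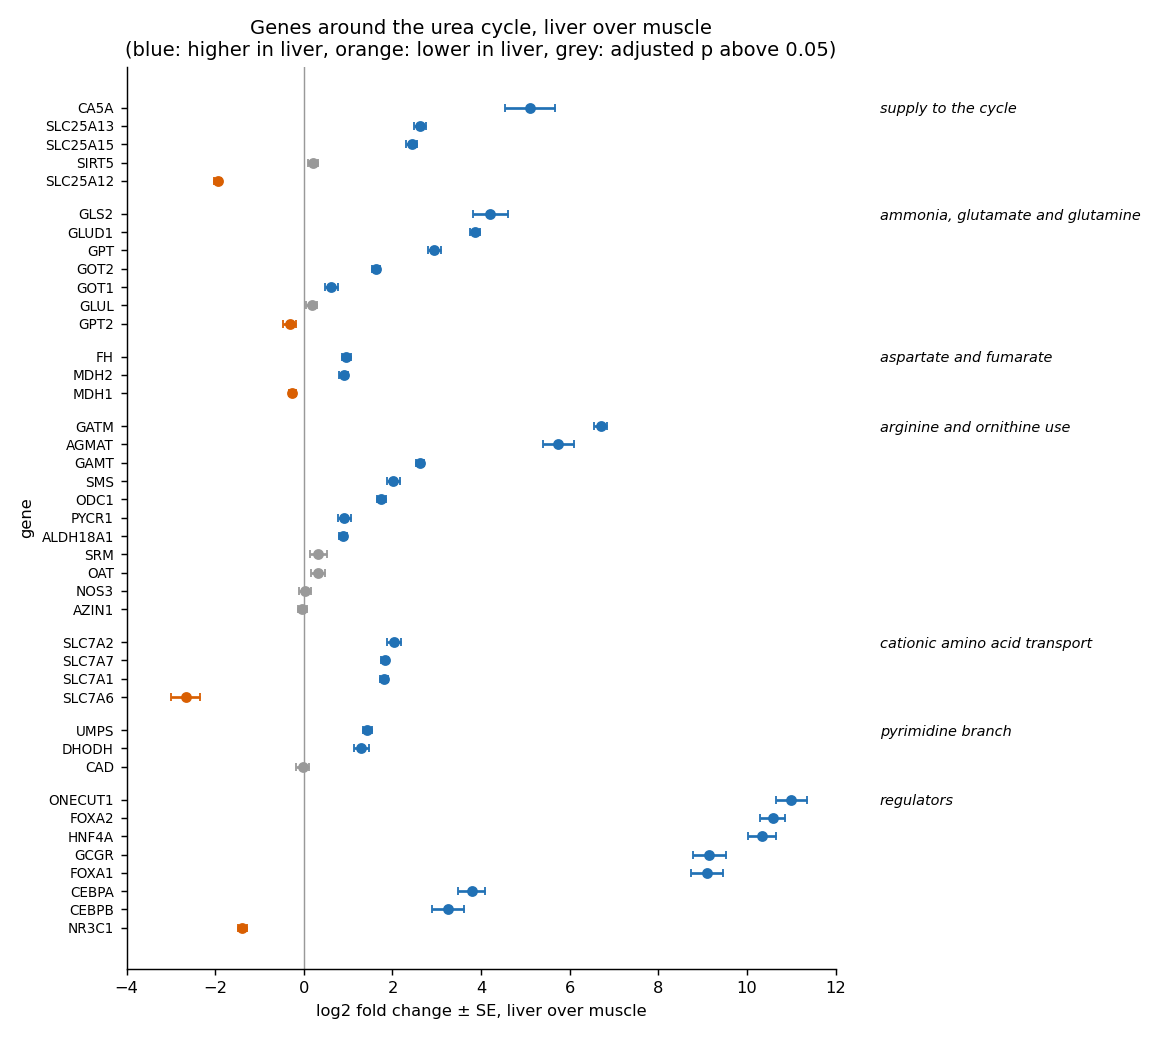
Log2 fold change of liver over muscle (horizontal axis) for the 41 tested genes around the urea cycle, by list, from edgeR's fit of 6 liver against 6 muscle libraries; bars are 1 standard error. Blue points are the 29 genes higher in liver, orange points the 5 lower, and grey points the 7 with an adjusted p above 0.05.

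Between the conception groups, 0 of these 41 genes passed in liver and 0 of 30 in muscle, with edgeR adjusted p of 0.503 and 0.485 or more. At an unadjusted p under 0.05 there were 5 liver genes (ONECUT1, PYCR1, CAD, GCGR and SLC7A6), against 8.39% of all genes tested in liver. For PYCR1, CAD and GCGR the highest liver was that of Control-AI 2, at 170, 82.2 and 111 CPM. Control-AI 4 had 135, 60.5 and 76.0 CPM. ONECUT1, a hepatocyte transcription factor, had 27.9, 33.5, 29.3 and 30.6 CPM in ART-Normal 1 to 4, and Control-AI 2 and 4 had 20.01 and 22.4 CPM (log2 fold change 0.51, SE 0.16, edgeR adjusted p = 0.503). SLC7A6 had 5.29 to 8.42 CPM in ART-Normal, 25.9 CPM in Control-AI 2 and 8.03 in Control-AI 4, so its log2 fold change of -1.24 (SE 0.39) rests on Control-AI 2 and was -0.16 (SE 0.34, edgeR adjusted p = 0.999) without it. Fits that leave out a control rest on a lone control, and their calls are given further on with those of all genes. In muscle SLC25A13 and OAT had an unadjusted p under 0.05, with log2 fold changes of 0.46 (SE 0.18, edgeR adjusted p = 0.485) and -0.30 (SE 0.13, edgeR adjusted p = 0.517). Of all genes tested in muscle, 9.19% had such a p.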

How the data were processed

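The authors deposited raw counts of reads per gene, not normalized, in 1 table for liver and 1 for muscle, with gene spans on ARS-UCD1.2. The submitters' processing notes name FastQC 0.11.7, HISAT2 2.1.0, Cufflinks, SAMtools, featureCounts and edgeR 3.24.3. The strand setting and the annotation release are not given in the sources used here. Each table has 13 columns of counts, of which 6 belong to labelled fetuses and 7 were not used (14 in all), and 9 gene identifiers stand on 2 lines each and were kept. Tables of the authors' own comparisons were deposited too (log2 fold change, log2 CPM, likelihood ratio, p-value, FDR), which were not used. Kidney libraries are in the labels and were not analysed here.

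CPM used TMM factors. Tests used edgeR 4.0.16 (glmQLFit and glmQLFTest, two-sided, no covariates) in R 4.3.3, over genes with at least 5 CPM in every library of a compared group, with Benjamini-Hochberg adjustment over all genes tested and genes called at 0.05. The fold change and its F statistic gave the standard error. The scripts were tested on simulated data. Python 3.11.15 and Matplotlib 3.10.9 drew the plots. Replicates were separate fetuses. Liver and muscle libraries of a number came from the same fetus by its identifier in the labels: deviations from the group mean correlated between tissues at r of 0.32, 0.07, 0.09 and 0.45 in ART-Normal 1 to 4 and 0.54 in the controls, whose deviations mirror each other. Alternatives were RLE, upper quartile and library-size scaling, other filters, the likelihood ratio test, DESeq2 1.42.0, ART-Normal 1 to 3, replicate blocks, both tissues in one fit, each conception group alone and leaving out each fetus.

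The members and lists were chosen with earlier results of these data known. The genes named are the 7 members, the lists around the cycle (by count, with examples and those passing a test), the 5 genes closest to CPS1 across livers, and genes overlapping a member. A planned list gene is not reported here.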

Additional observations from a re-analysis of the deposited data

Results flagged for a closer look

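Of 60 groups of 4 ART-Normal libraries checked for the members and examples from the lists, 5 had a library far from the other 3, where chance flags about 1 in 20 groups. None was a urea cycle gene, but the rule looks only for 1 library apart from the other 3. It cannot flag ARG2 in liver, where ART-Normal 3 and 4 were both high, or any Control-AI library. CA5A in muscle was at 1.26 CPM in ART-Normal 3 and at 0 to 0.149 CPM in the other 3. GLUD1 in liver was at 1527 CPM in ART-Normal 2 and at 1375 to 1394 CPM in the others. PYCR1 in muscle was at 67.7 CPM in ART-Normal 4 and at 59.6 to 60.6 CPM in the others. SLC7A6 in muscle was at 69.0 CPM in ART-Normal 1 and at 60.5 to 61.8 CPM in the others. ONECUT1 in muscle was at 0.0496 CPM in ART-Normal 4, which is 1 count, with 0 in the others.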

How the results depend on the processing

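For liver over muscle, 113 of 114 member values under the alternatives kept their direction and their side of the threshold, the exception being ARG2 in the Control-AI fetuses alone (1.04). All 7 members were called except 3 with at least 10 counts in every library, which removed the other 4 from the test, and 6 in DESeq2, which gave NAGS no adjusted p, and in the Control-AI fetuses alone. In those fetuses 3 genes around the cycle were lower in liver, against 5 in all fetuses. With the fetus as a replicate block, 7 members were called, and the interaction called 0.

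Between conception groups in liver, 0 members were called under any alternative. Directions turned for values near 0: NAGS was 0.22 with library size alone, 0.0186 with no filter and 0.11 with the replicate number as a block, and ARG1 was -0.0041 with upper quartile scaling and -0.14 with that block. ASL in muscle was 0.0423 with the block. The numbers pair no fetuses across groups, and the block changed no other call of a member. Leaving out each fetus gave -0.17 to 0.19 for NAGS, -0.22 to 0.37 for ARG1, 0.78 to 1.96 for ARG2 and, in muscle, -0.20 to 0.0413 for ASL. The log2 fold change of ARG2 in liver spanned 0.53 to 1.96 over all alternatives (adjusted p 0.482 to 0.999). Leaving out each fetus gave 0 to 1 member called in muscle (ARG2 without Control-AI 4, adjusted p = 4.13e-05), 0 to 1 in the interaction, and 0 to 3 and 0 to 4 genes around the cycle in liver and muscle. The highest of each came without Control-AI 4, where the lone control is assumed to vary like the other libraries.

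Over all genes, calls between conception groups were 0 in liver, against 6 with library size alone, 2 in ART-Normal 1 to 3 (the same fit as without ART-Normal 4), 2 with both tissues in one fit, 6 with the number block and 0 to 830 leaving out each fetus. They were 1 in muscle, against 0 in ART-Normal 1 to 3, 90 with the block and 0 to 1327, and 0 in the interaction against 0 to 232, the highest again without Control-AI 4. Library size alone moved the median log2 fold change of all genes to 0.21 in liver between conception groups and to -0.13 between tissues, where 44.2% of calls were higher in liver against 50.1%. The ARG2 share per kb of gene span and ARG2 in muscle with no filter and without Control-AI 2 were alternatives chosen after seeing the data. The count of genes with ART-Normal 3 highest and ART-Normal 4 second in liver was likewise chosen after seeing the data. Levels and shares per kb of exon were not run, since no exon lengths were used here. Depth limits NAGS, CPS1, OTC and ARG1 in muscle, which had at most 36 counts in a library.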
